A study of Homo sapiens with 58 samples.

Results

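The comparison concerns chromatin accessibility in cranial neural crest cells (CNCCs) after 24 h of full SOX9 loss, and it holds 4 of the 58 libraries analysed. They were taken by genotype, differentiation, treatment and time as labelled: SOX9-tagged cells from differentiations R4 and R5, kept for 24 h with either 500 nM dTAGV-1 or DMSO as vehicle, with 1 library of each treatment from each differentiation. All 4 derive from the human embryonic stem cell line H9, edited so that both SOX9 alleles carry a C-terminal FKBP12-F36V, mNeonGreen and V5 tag. dTAGV-1 binds the FKBP12-F36V part and brings an E3 ubiquitin ligase to the tagged protein, which is then degraded. The labels give a SOX9 level of 0.95% of the untreated level for 500 nM, and no library here measures the protein. Cells without the tag carry the same label at 500 nM for 3 h and 24 h, so it is not a measurement of each library. Cells were at passage 4 in long-term medium with BMP2 and the GSK3 inhibitor CHIR-99021, beside FGF and EGF, so signalling by BMP and WNT agonists was present in every group. The titles name the edited clone S9CC13 in both differentiations, whereas the column names of R5 name clone S9CC47. The clone of R5 was therefore not used, and clone and differentiation cannot be told apart in these 4 libraries. Wild-type (WT) cells of the same 2 differentiations, without the tag, received the same treatments for the same times (4 libraries at 24 h or with vehicle), and SOX9-tagged cells were also sampled after 3 h at 500 nM. A separate dose series was sampled after 48 h with 7 replicates at each concentration. In its replicate R14 the concentration labels of the 0 and 0.5 nM libraries are exchanged relative to the titles, and these libraries were placed by title. Whether title or label is right was not tested.

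SOX9 is an HMG-box transcription factor that bends DNA at short sites of the form ACAAT, and it commonly binds as a pair of molecules on sites that face each other. In the neural crest it acts in specification and migration, and in the cartilage lineage it works with SOX5 and SOX6 to switch on collagen and proteoglycan genes. Related SoxE factors, SOX8 and SOX10, take similar roles in glia and melanocytes. ATAC-seq uses the Tn5 transposase to cut open DNA, so the count in a regulatory element (RE) reports how accessible that stretch was. In bulk libraries, fewer cells with an open RE and less access per cell cannot be told apart.

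Sequences of the hg38 plus strand are shown for 4 REs that closed and that hold a pair of SOX sites facing each other, because REs with such sites were lost more often than others, and for a gained RE at ASIP with an AP-1 site. Capitals mark ACAAT and ATTGT in a facing pair and the AP-1 site at ASIP. The REs at ABLIM1, GCNT1 and LMF1 were chosen after their values were seen, as those with the smallest p among REs with a facing pair.
BMP7 intron, chr20:57241775-57241894: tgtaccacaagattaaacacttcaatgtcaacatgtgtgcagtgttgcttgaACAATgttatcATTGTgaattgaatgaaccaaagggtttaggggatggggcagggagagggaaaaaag
ABLIM1 intron, chr10:114489663-114489782: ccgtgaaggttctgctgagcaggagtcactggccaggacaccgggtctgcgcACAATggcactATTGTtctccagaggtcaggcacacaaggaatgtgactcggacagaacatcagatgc
GCNT1 intron, chr9:76473137-76473256: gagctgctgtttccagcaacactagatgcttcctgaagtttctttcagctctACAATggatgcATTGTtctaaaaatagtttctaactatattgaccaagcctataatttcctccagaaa
LMF1 intron, chr16:972684-972803: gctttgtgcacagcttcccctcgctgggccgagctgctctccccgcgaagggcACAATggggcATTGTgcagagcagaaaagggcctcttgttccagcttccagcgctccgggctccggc
ASIP intron, chr20:34222362-34222481: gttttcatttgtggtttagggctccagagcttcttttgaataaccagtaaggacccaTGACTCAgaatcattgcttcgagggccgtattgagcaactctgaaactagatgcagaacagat

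Values are CPM, counts scaled to the depth of each library with TMM factors, in the order R4, R5. An RE was called changed when its Benjamini-Hochberg adjusted p from edgeR's quasi-likelihood test was under 0.05 over all 151457 REs. The fit removes the difference in level between the 2 differentiations and includes the 3 h libraries. The p-values measure only how far changes with treatment varied between these 2 differentiations, with information on spread shared across REs. The RE in the BMP7 intron, 1944 bp from the start of this BMP ligand gene, held 96.6 and 60.7 CPM with vehicle and 36.3 and 17.4 CPM after 24 h (log2 fold change -1.67 ± 0.09 (SE), adjusted p = 2.8e-10). The sites of its pair are separated by 6 bp. At ABLIM1, which encodes an actin-binding protein, the RE held 56.6 and 42.4 CPM with vehicle and 4.94 and 4.96 CPM after 24 h (log2 fold change -3.37 ± 0.11 (SE), adjusted p = 9.8e-13). The RE in GCNT1, a glycosyltransferase gene, held 19.4 and 18.3 CPM with vehicle and 1.26 and 0.995 CPM after 24 h (log2 fold change -4.11 ± 0.17 (SE), adjusted p = 8.9e-12). In all 3, both treated libraries lay below both vehicle libraries. Most named REs, here and below, were picked by p or size of change among calls, which favours libraries without overlap. The share of all REs without overlap was not counted. LMF1, a lipase maturation factor gene, has an RE with facing sites 5 bp apart that held 30.4 and 21.2 CPM with vehicle and 1.89 and 2.03 CPM after 24 h (log2 fold change -3.77 ± 0.16 (SE), adjusted p = 1.5e-11), again with no overlap between treatments.

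The 4 libraries held 62.59 and 58.37 M counts in REs with vehicle and 60.07 and 50.99 M after 24 h, and the median RE held 141 to 171 counts. All 7 defining CNCC genes (TFAP2A, TFAP2B, TWIST1, NR2F1, NR2F2, ALX1, PRRX1) had accessible promoter REs, with a summed level of 413 and 398 CPM with vehicle and 396 and 427 CPM after 24 h, and 2 of their 18 promoter REs were called lower. In the whole list of 25 CNCC transcription factors, 24 genes had a promoter RE, with 51 REs in all. Their sum was 687 and 686 CPM with vehicle and 692 and 770 CPM after 24 h. Promoters of other cell types were lower in sum but over fewer REs than the CNCC list, so the sums do not compare levels per RE. The 9 promoter REs of endothelial genes summed to 77.6 and 71.0 CPM with vehicle and 75.8 and 69.5 CPM after 24 h. The 5 of skeletal muscle genes summed to 17.2 and 16.9 CPM with vehicle and 18.3 and 21.1 CPM after 24 h. Pluripotency genes, with 11 promoter REs, summed to 109 and 100.3 CPM with vehicle and 87.0 and 95.5 CPM after 24 h. Neuroepithelium genes, with 19 promoter REs, summed to 121 and 118 CPM with vehicle and 125 and 138 CPM after 24 h. NANOG, ZFP42, MYF5, DES, PECAM1, TIE1 and HES5 had no promoter RE, but other genes of these lists had accessible promoters. With vehicle, the promoter REs of LIN28A summed to 48.7 and 43.2 CPM, of ERG to 36.3 and 45.2 CPM and of PAX6 to 32.7 and 30.7 CPM. In the CNCC list LMX1B had no promoter RE, and that of PITX1 held 1.64 and 2.55 CPM. Promoter accessibility therefore does not separate the lists gene by gene.

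At the SOX9 gene itself the RE over the start site (chr17:72119993-72121187) held 33.1 and 30.8 CPM with vehicle and 34.6 and 37.1 CPM after 24 h (log2 difference 0.11 ± 0.08 (SE), adjusted p = 0.41). The treatments did not overlap, but the difference did not pass the test. The tag acts on the protein, so accessibility at the gene is no check of depletion.

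After 24 h without SOX9, many more REs closed than opened, and the closures were larger. The fit called 22160 REs, of which 15044 were lower (9.93% of the 151457 tested) and 7116 higher (4.70%). The median log2 fold change was -1.02 among lower REs and 0.53 among higher REs. A change of at least 1 on the log2 scale was reached by 7705 lower REs (51.2%) and by 417 higher REs (5.86%). A drop of at least 2 was found at 2559 REs and of at least 3 at 764, and no RE rose by as much as 2. In CPM, the median lower RE went from 4.96 with vehicle to 2.10 after 24 h, and the median higher RE from 6.12 to 9.27.

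**Figure D1:**
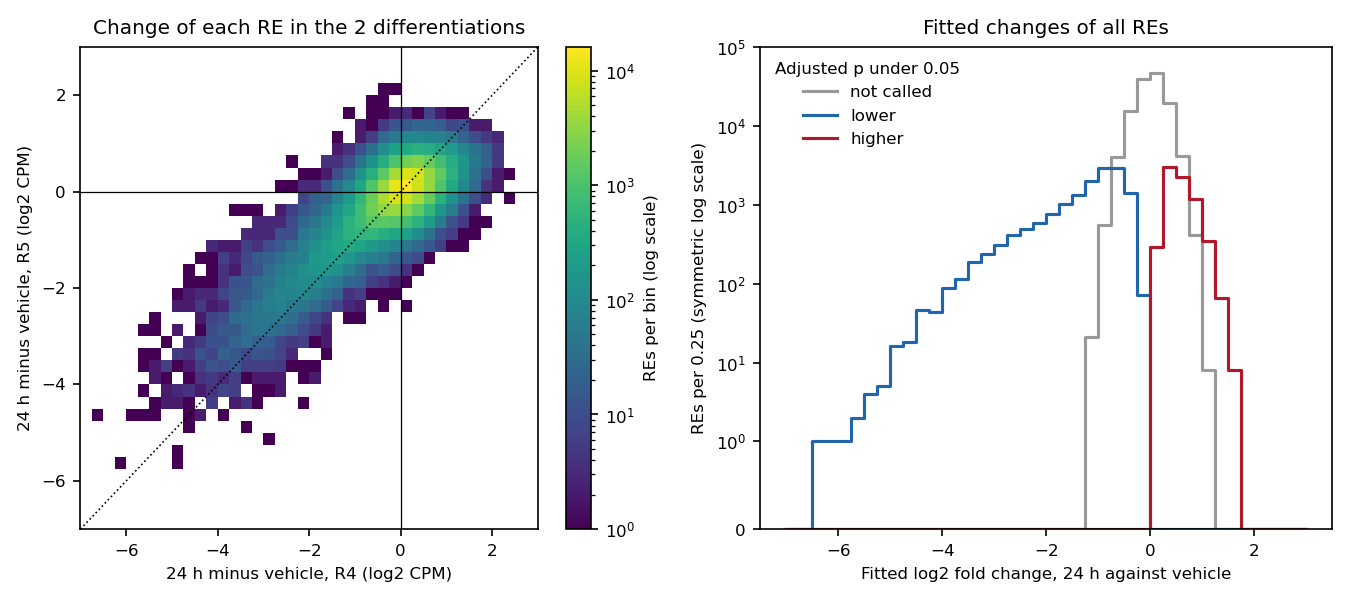
Left, log2 change in CPM from vehicle to 24 h in differentiation R4 (horizontal) and R5 (vertical), with the number of REs per bin as colour on a log scale. Right, number of REs per 0.25 of fitted log2 fold change, for REs not called, lower and higher at 24 h. The tail of losses runs past -6 in the fit, whereas no gain reaches 2. The same direction in both differentiations, which a paired test selects for, was found at 15010 of the 15044 lower REs and all 7116 higher REs. Over all 151457 REs, 41498 fell in both and 62799 rose in both.

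Both differentiations showed the same directions, with larger steps in R4. Of the lower REs, 15010 of 15044 had a lower CPM in both differentiations, and all 7116 higher REs had a higher CPM in both. A paired test selects for this property. Over all 151457 REs, 41498 had a lower CPM in both and 62799 a higher CPM in both. The median change of lower REs was -1.05 in R4 and -0.845 in R5, and R4 had the larger loss at 70.7% of them. For higher REs the medians were 0.630 in R4 and 0.499 in R5. DESeq2 called 13283 REs (10599 lower, 2684 higher), and 70.5% of the lower but 37.7% of the higher edgeR calls were among them. Without the vehicle library of R4, 9113 lower and 1628 higher REs were called, and with all 12 time-course libraries in a single fit, 15076 and 3813. A fit without the differentiation as replicate block called 969 lower and 0 higher REs.

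Lost REs lay mostly away from genes' starts. Introns held 50.1% of lower REs, against 40.8% of all REs, and promoters (within 1000 bp of an annotated start) held 12.6%, against 24.7%. The median distance to a coding start was 31112 bp for lower REs, 11439 bp for higher REs and 18356 bp for all REs. The median GC content was 46.1% for lower, 52.0% for higher and 48.1% for all REs. Promoters made up 38.7% of higher REs, but this share depended on the fit. Without all SOX9-tagged libraries of R4, or all of R5, the share fell below the 24.7% of all REs, and it was lowest of all fits without R5. It was 15.4% with a GC offset per library, 18.9% with all 12 libraries in the fit, 16.2% without the vehicle library of R5 and 22.6% without its 24 h library, whereas it was 44.2% with total counts, 41.6% without the vehicle library of R4 and 53.2% without its 24 h library. Promoter REs as a whole moved by a median log2 of 0.091 in R4 and 0.184 in R5 in SOX9-tagged cells, and by -0.067 and -0.032 in WT cells, and the part of base composition in the promoter gains was not tested beyond that offset.

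More accessible REs were called more often. In 4 equal groups by vehicle CPM, from the least to the most accessible, 2.02%, 8.41%, 12.6% and 16.7% of REs were called lower, and 2.39%, 2.94%, 4.20% and 9.26% higher. These are shares of calls and depend on depth.

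The deepest losses left REs with a few percent of their vehicle accessibility. An RE inside POLR2F, within 1000 bp of an annotated start and 9675 bp from the start of SOX10, the SoxE factor of glia and melanocytes, held 32.1 and 17.5 CPM with vehicle and 0.605 and 0.700 CPM after 24 h (chr22:37967856-37968356, log2 fold change -5.28 ± 0.22 (SE), adjusted p = 1e-11). In DIAPH1, the gene of an actin-nucleating formin, an intronic RE (chr5:141521281-141521781) held 40.4 and 27.4 CPM with vehicle and 0.682 and 1.03 CPM after 24 h (log2 fold change -5.37 ± 0.20 (SE), adjusted p = 3.4e-12). Both treated libraries were far below both vehicle libraries at each RE, and at DIAPH1 WT cells held 43.4 and 35.1 CPM with vehicle and 44.9 and 34.0 CPM after 24 h of dTAGV-1.

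Other REs of this rank sat at genes of general cell functions. The RE over the start of TTLL4, a tubulin-modifying enzyme (chr2:218745777-218746277), held 14.2 and 9.86 CPM with vehicle and 0.108 and 0.350 CPM after 24 h (log2 fold change -5.80 ± 0.29 (SE), adjusted p = 7.7e-11). At USP54, of the ubiquitin-specific peptidase family, the promoter RE (chr10:73553192-73553692) held 11.7 and 2.81 CPM with vehicle and 0.217 and 0.111 CPM after 24 h (log2 fold change -5.51 ± 0.29 (SE), adjusted p = 1.4e-10). PRKAR2A, which encodes a regulatory subunit of protein kinase A, had an RE in an untranslated exon with 5.61 and 4.54 CPM with vehicle and 0.140 and 0.0737 CPM after 24 h (chr3:48746865-48747365, log2 fold change -5.58 ± 0.29 (SE), adjusted p = 1.2e-10). Vehicle and treated libraries did not overlap at any of the 3, which the choice by largest fitted loss favours. The vehicle libraries differed most at USP54, where R4 held more than R5 by far.

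The most negative fitted value was at an RE in GPR89A, which encodes a Golgi ion-channel protein and has a near-identical paralog, so that reads could be split between copies. It held 199 and 72 counts with vehicle and 2 and 1 counts after 24 h, that is 1.22% of the vehicle rate with a 95% exact interval of 0.249% to 3.59%, which covers counting error only. An RE in a non-coding gene 1487582 bp from the nearest coding start, that of FLRT2, held 7.03 and 5.28 CPM with vehicle and 0.202 and 0.0737 CPM after 24 h (chr14:84042062-84042562, log2 fold change -5.50 ± 0.28 (SE), adjusted p = 9.6e-11). At such distances the nearest gene is a label of position and no statement of a target.

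Among REs at the starts of coding genes, where TTLL4 and USP54 came first, the losses next in size were at ARPC1A, a subunit of the actin-branching Arp2/3 complex, with 18.9 and 4.84 CPM with vehicle and 0.356 and 0.350 CPM after 24 h (log2 fold change -5.02 ± 0.29 (SE), adjusted p = 5e-10), and at PLEKHB1. The PLEKHB1 promoter RE (chr11:73652246-73652746) was among the more accessible ones, with 60.7 and 49.8 CPM with vehicle and 1.67 and 2.23 CPM after 24 h (log2 fold change -4.89 ± 0.13 (SE), adjusted p = 4e-13). At both, the treated libraries stayed below every vehicle library. Between these in rank was an RE at the start of ENSG00000258417, with 21.4 and 5.28 CPM with vehicle and 0.403 and 0.442 CPM after 24 h.

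**Figure D2:**
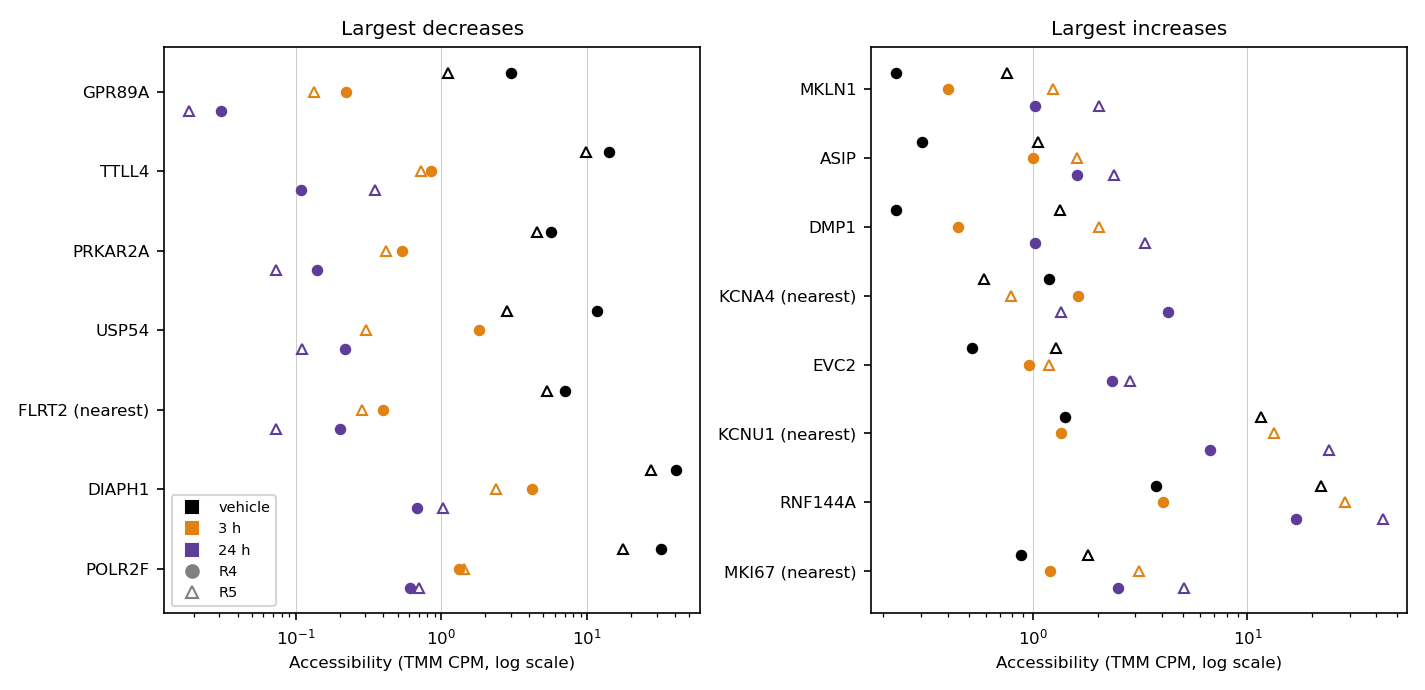
Accessibility in TMM CPM (log scale, horizontal) of 7 of the 8 REs with the most negative and the 8 with the most positive fitted change among called REs with a mean of at least 1 CPM, in SOX9-tagged cells. Filled circles are R4 and open triangles R5, and colour gives vehicle, 3 h or 24 h at 500 nM, with 1 library a point. At the losses every 24 h point lies left of every vehicle point. The choice by largest fitted change, with the same direction required in both differentiations, favours such separation, and its share over all REs was not counted. At several gains the differentiations differ more than the treatments, as at RNF144A, where vehicle stood at 3.74 CPM in R4 and 22.1 CPM in R5.

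REs were assigned to the coding gene they lie in or else to the nearest coding start within 100000 bp, and gene groups are described by how many REs were called, beside 9.93% lower and 4.70% higher over all REs. Among REs of SOX5 and SOX6, whose proteins are partners of SOX9 on cartilage enhancers, 28 of 103 REs (27.2%) fell and 1 (0.971%) rose. SOX5 alone had 19 of 53 REs lower and none higher, and SOX6 9 of 50 lower. The SOX5 intronic RE with the smallest p (chr12:23771165-23771665) held 13.3 and 15.2 CPM with vehicle and 1.74 and 2.56 CPM after 24 h (log2 fold change -2.80 ± 0.15 (SE), adjusted p = 2.1e-10). The single higher RE, in SOX6, held 1.91 and 1.05 CPM with vehicle and 3.70 and 1.55 CPM after 24 h (log2 fold change 0.74 ± 0.22 (SE), adjusted p = 0.028), and its levels overlapped between treatments across differentiations.

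For the cartilage collagens, 14 of 83 REs (16.9%) fell and 4 (4.82%) rose. The lower ones were mainly at COL2A1, the main cartilage collagen (6 of 8 REs), COL9A3 (4 of 10) and COL9A2 (2 of 2), whereas the 34 REs of COL27A1 gave 1 lower and 2 higher call. In COL2A1 an intronic RE 1864 bp from a start (chr12:48001998-48002498) held 31.6 and 24.0 CPM with vehicle and 10.8 and 9.16 CPM after 24 h (log2 fold change -1.53 ± 0.10 (SE), adjusted p = 1.6e-09), with no overlap. For other cartilage matrix genes, 12 of 93 REs (12.9%) fell and 3 (3.23%) rose. Both REs of UCMA, a vitamin K-dependent cartilage matrix protein, were lower, and the RE with the smaller p held 19.5 and 9.30 CPM with vehicle and 3.94 and 2.84 CPM after 24 h (log2 fold change -2.09 ± 0.15 (SE), adjusted p = 7.7e-09).

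Chondroitin sulfate, the sugar chain of cartilage proteoglycans, is made by a set of transferases. Of their REs, 17 of 160 REs (10.6%) fell and 5 (3.12%) rose, shares close to those of all REs. An intronic RE of the sulfotransferase gene CHST3 (chr10:71981127-71981627) held 15.7 and 10.6 CPM with vehicle and 2.02 and 2.67 CPM after 24 h (log2 fold change -2.53 ± 0.19 (SE), adjusted p = 1e-08). The promoter of PAPSS1, which makes the sulfate donor, opened slightly, with 43.5 and 37.7 CPM with vehicle and 52.8 and 52.7 CPM after 24 h (log2 fold change 0.32 ± 0.07 (SE), adjusted p = 0.0032). Both changes were outside the range of the vehicle libraries.

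Genes of the other neural crest derivatives were next. In the glial and Schwann cell list, 17 of 82 REs (20.7%) fell and 3 (3.66%) rose. Of the lower REs, EDNRB, FOXD3, GFRA3 and S100B gave 2 each, while the 2 REs assigned to SOX10 gave no call. The lost RE near the SOX10 start described above lies inside POLR2F and was assigned to that gene. NGFR, the neurotrophin receptor that marks the crest, had 1 lower RE and 1 higher RE of 18, and the higher one held 22.0 and 22.4 CPM with vehicle and 28.5 and 29.0 CPM after 24 h (log2 fold change 0.32 ± 0.08 (SE), adjusted p = 0.01). The summed promoter level of the list was 79.7 and 72.3 CPM with vehicle and 77.8 and 79.1 CPM after 24 h, and 3 of its promoter REs were lower.

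In the melanocyte list 8 of 46 REs (17.4%) fell and 2 (4.35%) rose. Where only REs in the gene body or within 10000 bp of its start were counted, 2 of 28 (7.14%) fell, and DESeq2 called 3 of the 46 lower. An RE 25576 bp from the start of TYR, the tyrosinase of melanin synthesis, held 7.81 and 2.95 CPM with vehicle and 1.40 and 0.830 CPM after 24 h (log2 fold change -2.27 ± 0.21 (SE), adjusted p = 1.9e-07). An RE near TYRP1, a related enzyme, held 3.19 and 2.61 CPM with vehicle and 4.77 and 4.72 CPM after 24 h (log2 fold change 0.65 ± 0.17 (SE), adjusted p = 0.012). For neuronal factors, 8 of 79 REs (10.1%) fell, a share close to that of all REs, and 2 (2.53%) rose. An RE 5107 bp from the proneural gene NEUROG2 rose, with 14.9 and 12.2 CPM with vehicle and 22.2 and 17.4 CPM after 24 h (log2 fold change 0.49 ± 0.10 (SE), adjusted p = 0.0014). At TYR the vehicle library of R5 (2.95 CPM) was closer to the treated ones than that of R4 (7.81 CPM), without overlap.

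Among cranial neural crest transcription factors, 36 of 386 REs (9.33%) fell and 29 (7.51%) rose. The lower share was close to that of all REs (9.93%), and the higher share was above it (4.70%). MSX1, a homeobox gene downstream of BMP, had 7 higher and 2 lower of 26 REs, and DLX2 3 higher and 1 lower of 13. PAX7 had 8 of 30 lower, LMX1B 4 of 34 lower and 2 higher, and TFAP2A 3 of 25 lower. An RE 4661 bp from the start of MSX1 (chr4:4867089-4867890) held 14.1 and 23.2 CPM with vehicle and 27.5 and 37.3 CPM after 24 h (log2 fold change 0.77 ± 0.10 (SE), adjusted p = 1.4e-05). For FOXC1 the leading RE, 82385 bp from the start, held 24.0 and 25.7 CPM with vehicle and 11.6 and 14.6 CPM after 24 h (log2 fold change -0.99 ± 0.10 (SE), adjusted p = 3.7e-07). At MSX1 the R5 vehicle library (23.2 CPM) came near the R4 treated library (27.5 CPM), and at FOXC1 the treatments were well apart.

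Among osteoblast genes, 17 of 157 REs (10.8%) fell and 8 (5.10%) rose, shares close to those of all REs. The runt factors split, with 10 of 48 REs of RUNX1 lower and none higher, and 4 lower and 4 higher of 31 at RUNX2. A RUNX1 intronic RE (chr21:34936808-34937308) held 4.65 and 2.21 CPM with vehicle and 0.388 and 0.221 CPM after 24 h (log2 fold change -3.52 ± 0.27 (SE), adjusted p = 1.5e-08). At this RE the treated libraries lay below both vehicle libraries.

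Signalling pathways held both losses and gains. For BMP and TGF-beta signalling, 58 of 445 REs (13.03%) fell and 32 (7.19%) rose. Among ligand genes, BMP7 had 11 of 40 REs lower and TGFB2 5 lower and 1 higher of 18, while BMP4 and BMP5 each had 1 lower and 2 higher, of 16 and 11. The receptor gene TGFBR2 had 4 of 17 lower, and SMAD3, a transducer, 7 lower and 1 higher of 35. The inhibitor genes differed, with 4 lower and 1 higher of 28 REs at SMAD6, 4 of 24 higher at SMAD7 and 3 of 17 higher at the pseudoreceptor gene BAMBI. Of the target genes, ID1 had 7 higher and 1 lower of 10, ID2 4 higher and 1 lower of 23, and ID3 1 higher and 5 lower of 17. The BMP receptor gene BMPR1B had 8 of 46 REs lower, but its promoter RE (chr4:94975892-94977092) opened, with 4.24 and 5.93 CPM with vehicle and 7.92 and 11.5 CPM after 24 h (log2 fold change 0.87 ± 0.14 (SE), adjusted p = 0.00016).

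In the FGF pathway 36 of 244 REs (14.8%) fell and 15 (6.15%) rose. Several feedback inhibitors lost REs, with SPRY4 at 6 of 29 and SPRY1 at 4 of 13 lower and none higher. SPRED2 had 5 lower and 1 higher of 24, and SPRED1 4 lower and 1 higher of 17. DUSP6 had 1 lower and 1 higher of 14. The receptor gene FGFR1 had 6 lower and 1 higher of 24, and FGFR2 1 lower and 3 higher of 23. All 5 called REs of the ligand gene FGF18, of 21, were higher. An RE 54829 bp from the start of SPRED1, which restrains Ras to ERK signalling, nearly closed, with 7.15 and 12.2 CPM with vehicle and 0.217 and 0.516 CPM after 24 h (log2 fold change -4.81 ± 0.22 (SE), adjusted p = 2.4e-11). The leading FGF18 RE held 23.0 and 27.3 CPM with vehicle and 34.3 and 38.1 CPM after 24 h (log2 fold change 0.47 ± 0.08 (SE), adjusted p = 0.00021). Neither overlapped between treatments.

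For the WNT pathway, 71 of 509 REs (13.9%) fell and 16 (3.14%) rose. Losses were spread over several genes. The non-canonical receptor gene ROR1 had 9 lower and 1 higher of 49 REs, and ROR2 8 lower and 2 higher of 47. Of the nuclear effectors, TCF7L1 had 9 lower and 1 higher of 46, and TCF7L2 6 of 36 lower. Of the feedback genes, AXIN2 had 5 of 19 lower, and NKD1 7 lower and 1 higher of 36. An RE 1410 bp from a start of ROR1 (chr1:63771895-63772607) held 52.1 and 43.5 CPM with vehicle and 5.56 and 6.12 CPM after 24 h (log2 fold change -3.09 ± 0.12 (SE), adjusted p = 4.6e-12). SFRP1, a secreted WNT antagonist, had 7 lower and 3 higher of 26 REs, and the leading higher RE held 17.8 and 17.1 CPM with vehicle and 29.4 and 25.7 CPM after 24 h (log2 fold change 0.60 ± 0.09 (SE), adjusted p = 5.5e-05).

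Hedgehog pathway REs gave like shares, as 32 of 227 REs (14.1%) fell and 9 (3.96%) rose. GLI3 had 11 of 52 lower and none higher, and GLI2 9 lower and 4 higher of 53. The co-receptor gene BOC also held calls in both directions. Its intronic RE at chr3:113275820-113276320 held 80.4 and 55.4 CPM with vehicle and 26.5 and 19.1 CPM after 24 h (log2 fold change -1.63 ± 0.07 (SE), adjusted p = 1.7e-11). Another RE at chr3:113179345-113179845 held 16.3 and 38.9 CPM with vehicle and 36.1 and 50.5 CPM after 24 h (log2 fold change 0.71 ± 0.13 (SE), adjusted p = 0.00074), with overlap between the differentiations, because R5 with vehicle exceeded R4 after 24 h. DESeq2 did not call this gain (adjusted p = 0.16).

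In the list of AP-1 factors and YAP targets, 26 of 226 REs (11.5%) fell and 12 (5.31%) rose, shares near those of all REs. WWTR1, which encodes the Hippo pathway co-activator TAZ, held 13 of the 26 lower REs with 27 REs in all. The leading WWTR1 RE, in an intron (chr3:149553632-149554545), was among the most accessible, with 114 and 72.7 CPM with vehicle and 43.6 and 30.4 CPM after 24 h (log2 fold change -1.38 ± 0.06 (SE), adjusted p = 3.8e-11). Among the AP-1 factors, FOS had 2 higher REs, FOSL2, JUNB and JUND 1 each and ATF3 2, while JUN, FOSL1 and ATF3 had 1 lower RE each. The promoter RE of ATF3, a stress-induced AP-1 family gene, held 38.3 and 32.0 CPM with vehicle and 49.1 and 47.5 CPM after 24 h (log2 fold change 0.41 ± 0.07 (SE), adjusted p = 0.0005). Both leading REs were apart between treatments.

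For mesenchymal transition genes and cadherins, 20 of 153 REs (13.1%) fell and 6 (3.92%) rose. ZEB2 had 6 of 28 lower, and the leading RE, 59512 bp from its start, held 34.1 and 21.1 CPM with vehicle and 14.6 and 8.79 CPM after 24 h (log2 fold change -1.30 ± 0.10 (SE), adjusted p = 1.1e-08). SNAI1 had 4 lower and 2 higher of 21, and the leading higher RE held 12.4 and 14.8 CPM with vehicle and 21.9 and 23.2 CPM after 24 h (log2 fold change 0.68 ± 0.10 (SE), adjusted p = 6.8e-05). Both genes encode repressors of the epithelial state.

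Guidance and adhesion genes, which crest cells use to migrate, had many REs. For axon guidance and migration cues, 130 of 933 REs (13.9%) fell and 38 (4.07%) rose. Losses were many at SLIT3 (15 lower and 5 higher of 91) and EFNA5 (10 lower and 4 higher of 63). EPHB2 had 9 of 39 lower, and SEMA5A 9 lower and 1 higher of 42. In SLIT3, a ligand of ROBO receptors, an intronic RE (chr5:168885237-168885737) held 86.8 and 53.4 CPM with vehicle and 18.4 and 14.5 CPM after 24 h (log2 fold change -2.12 ± 0.08 (SE), adjusted p = 6.4e-12). A different SLIT3 RE, 49511 bp from the start, held 6.70 and 16.9 CPM with vehicle and 16.04 and 29.1 CPM after 24 h (log2 fold change 0.96 ± 0.12 (SE), adjusted p = 1.5e-05). The loss was apart between treatments, and the gain was within the range of the other differentiation.

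For integrins and laminins, 58 of 346 REs (16.8%) fell and 21 (6.07%) rose. Many of the losses were at ITGA9 (14 lower and 1 higher of 54) and ITGA11 (9 lower and 1 higher of 29). ITGA6 had 7 of 16 lower, and LAMA1 7 lower and 2 higher of 23. An RE of ITGA1, an alpha subunit of collagen-binding integrins (chr5:52868379-52868879), held 15.2 and 10.3 CPM with vehicle and 0.635 and 0.535 CPM after 24 h (log2 fold change -4.49 ± 0.19 (SE), adjusted p = 1e-11). An RE of ITGA3, an alpha subunit of laminin-binding integrins, rose in each differentiation, with 5.32 and 12.96 CPM with vehicle and 9.32 and 19.4 CPM after 24 h (log2 fold change 0.63 ± 0.12 (SE), adjusted p = 0.0008), again with overlap across differentiations.

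Matrix proteases and their inhibitors gave shares close to those of all REs, as 27 of 270 REs (10.0%) fell and 12 (4.44%) rose. ADAMTS12 had 8 of 25 lower, and the leading RE held 48.3 and 31.4 CPM with vehicle and 16.4 and 13.6 CPM after 24 h (log2 fold change -1.45 ± 0.09 (SE), adjusted p = 2.3e-09). ADAMTS16 had 3 lower and 4 higher of 25, and the leading higher RE held 1.84 and 2.47 CPM with vehicle and 3.41 and 4.44 CPM after 24 h (log2 fold change 0.81 ± 0.18 (SE), adjusted p = 0.0037). For collagens outside cartilage, 39 of 436 REs (8.95%) fell, a share close to that of all REs, and 31 (7.11%) rose. COL25A1 had 10 of 38 lower, whereas COL16A1 and COL6A2 had 4 higher REs each and none lower.

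An RE 24661 bp from the start of COL13A1, a transmembrane collagen, held 38.9 and 22.0 CPM with vehicle and 3.84 and 3.76 CPM after 24 h (log2 fold change -3.02 ± 0.15 (SE), adjusted p = 7.5e-11). The leading higher RE near COL16A1 held 18.3 and 21.2 CPM with vehicle and 26.7 and 30.6 CPM after 24 h (log2 fold change 0.48 ± 0.08 (SE), adjusted p = 0.00036). Treatments did not overlap at either.

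Lists of cell types other than the crest also held called REs. For pluripotency genes 5 of 41 REs (12.2%) fell and 1 (2.44%) rose, and for neuroepithelium genes 5 of 72 (6.94%) fell and 2 (2.78%) rose. For endothelial genes 13 of 86 (15.1%) fell and 2 (2.33%) rose, and for skeletal muscle genes 0 of 24 changed. Over all REs 9.93% fell and 4.70% rose. The endothelial share of lower REs lay between those of other cartilage matrix genes (12.9%) and cartilage collagens (16.9%). A promoter RE of the DNA methyltransferase gene DNMT3B held 13.7 and 4.81 CPM with vehicle and 1.504 and 0.793 CPM after 24 h (log2 fold change -3.01 ± 0.19 (SE), adjusted p = 1.2e-09). An RE 39314 bp from SOX1, a SoxB factor of the neural plate, held 9.13 and 3.68 CPM with vehicle and 0.868 and 0.608 CPM after 24 h (log2 fold change -3.11 ± 0.22 (SE), adjusted p = 5.8e-09), and ERG, an ETS factor of endothelium, had 11 of 37 REs lower, led by an intronic RE with 10.2 and 6.26 CPM with vehicle and 1.01 and 1.03 CPM after 24 h (log2 fold change -3.05 ± 0.20 (SE), adjusted p = 2.2e-09). The part of other cell types in these calls was not tested, and the summed promoter levels of the lists are those given above.

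**Figure D3:**
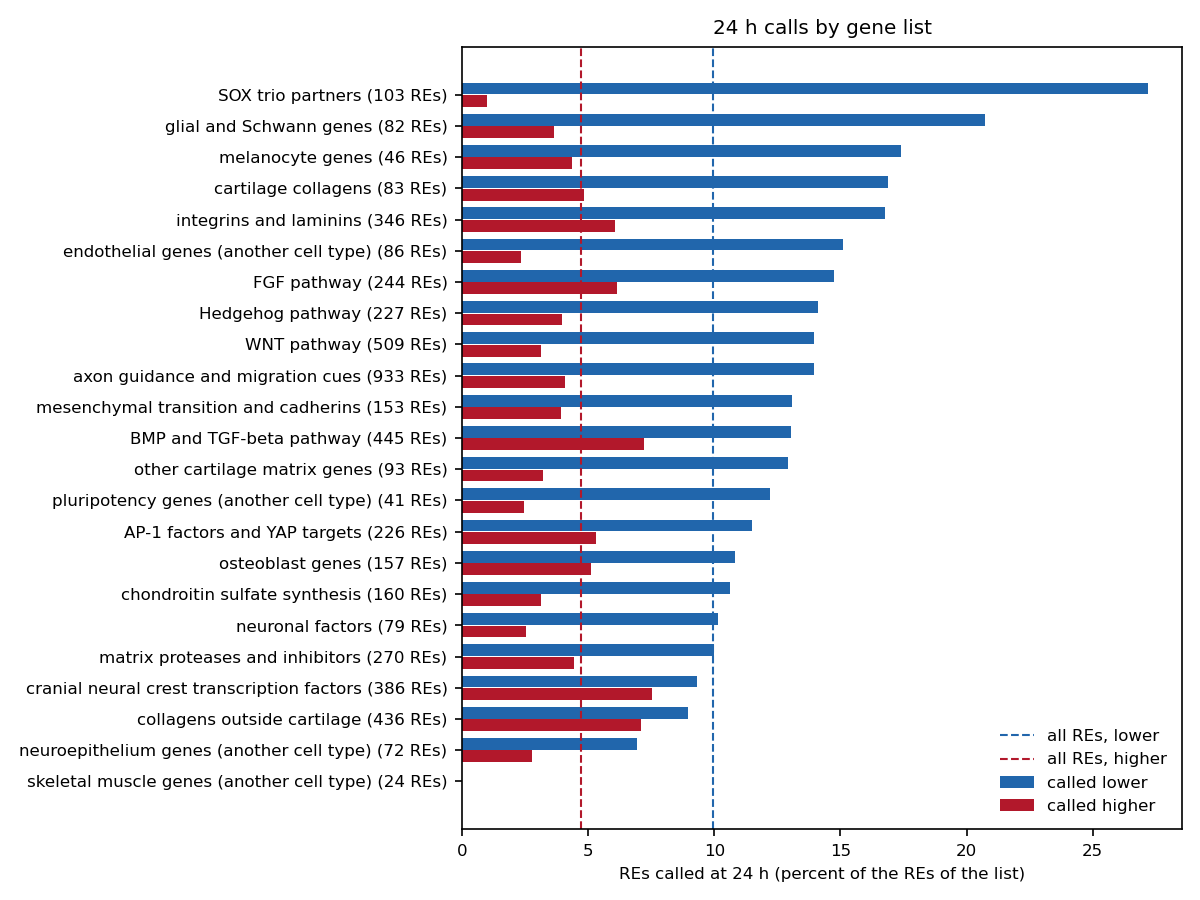
Percent of the REs assigned to each gene list that were called lower or higher at 24 h (horizontal), with the number of REs of each list and the shares over all REs, 9.93% and 4.70%. SOX5 and SOX6 have the highest share of lower REs, 27.2%, and skeletal muscle genes have no call.

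Counted over all genes, 17701 had an assigned RE, 3684 had only lower calls, 2442 only higher calls and 1872 both. RAD51B, a recombination gene, had the most lower REs (21 of 69, with 3 higher), followed by SOX5 and the adhesion receptor gene ADGRL2 (17 of 59). Next were the teneurin gene TENM4 (17 of 99, with 4 higher) and the homeobox gene PKNOX2 (15 of 44, with 1 higher). PKNOX2 was tied in number with ADAMTSL1, SLIT3 and NTM. The most higher REs were at CCBE1, a secreted factor of lymphatic growth (10 of 44, with 1 lower), FAM9B (9 of 40, with 4 lower), the glypican gene GPC6 (8 of 61, with 10 lower), the phosphodiesterase gene PDE4D (8 of 87, with 6 lower) and ID1, which was tied in number with 8 more genes. Genes with more REs have more chances of a call, so these counts do not rank genes by their share.

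Most of the largest gains were at weakly accessible REs. In MKLN1, which encodes the ubiquitin ligase subunit muskelin, an intronic RE (chr7:131248942-131249442) held 0.228 and 0.757 CPM with vehicle and 1.02 and 2.03 CPM after 24 h (log2 fold change 1.65 ± 0.30 (SE), adjusted p = 0.0006). ASIP, an antagonist of the melanocortin receptor of melanocytes, gained at 2 named REs. Its intronic RE shown above (chr20:34222170-34222670) held 0.304 and 1.05 CPM with vehicle and 1.597 and 2.38 CPM after 24 h (log2 fold change 1.58 ± 0.28 (SE), adjusted p = 0.00056), and the RE 687 bp from its coding start held 1.03 and 0.850 CPM with vehicle and 2.62 and 2.67 CPM after 24 h (log2 fold change 1.43 ± 0.25 (SE), adjusted p = 0.00049). The vehicle libraries of MKLN1 held 15 and 49 counts, and its fold change rests on few reads.

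A higher RE in DMP1, a mineralised-matrix gene, held 0.228 and 1.33 CPM with vehicle and 1.02 and 3.34 CPM after 24 h (log2 fold change 1.54 ± 0.26 (SE), adjusted p = 0.00033), and another in EVC2, a ciliary Hedgehog component, held 0.516 and 1.28 CPM with vehicle and 2.33 and 2.82 CPM after 24 h (log2 fold change 1.52 ± 0.26 (SE), adjusted p = 0.00032). An RE 199617 bp from MKI67, the nearest coding gene and a proliferation marker, held 0.881 and 1.81 CPM with vehicle and 2.50 and 5.07 CPM after 24 h (log2 fold change 1.44 ± 0.20 (SE), adjusted p = 3.2e-05). At EVC2 and MKI67 both treated libraries exceeded both vehicle libraries, and at DMP1 they overlapped. In RNF144A, a ubiquitin ligase gene, the RE held 3.74 and 22.1 CPM with vehicle and 16.9 and 42.7 CPM after 24 h (log2 fold change 1.49 ± 0.22 (SE), adjusted p = 5.8e-05), with the R4 treated library below the R5 vehicle library.

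Promoter gains of the named rank were of modest size. PFKFB3, a regulator of glycolysis, held 1.63 and 4.77 CPM with vehicle and 5.95 and 7.17 CPM after 24 h (log2 fold change 1.13 ± 0.23 (SE), adjusted p = 0.0015), and DOCK2, a Rac activator, 2.16 and 7.97 CPM with vehicle and 6.29 and 14.8 CPM after 24 h (log2 fold change 1.13 ± 0.17 (SE), adjusted p = 6.2e-05). DESeq2 called DOCK2 (adjusted p = 9.8e-07) but not PFKFB3 (adjusted p = 0.1). Treated libraries exceeded both vehicle libraries at PFKFB3, whereas at DOCK2 the R4 treated library lay below the R5 vehicle library.

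REs lost at 24 h were rich in SOX sites, and those gained were not. A SOX core was counted on either strand as AACAAT, or as ACAATG, which overlaps it, or else as ACAAAG, in the 123778 REs of the common length of 501 bp. It was present in 76.8% of lower REs, 40.4% of higher REs and 54.6% of all REs. Among higher REs it was in 38.6% with total counts, 46.2% with all 12 libraries in the fit and 49.2% with the GC offset. The share grew with the size of the loss, from 69.0% of lower REs with a log2 change above -1 to 79.8%, 87.8% and 93.0% in the steps down to below -3. AP-1 sites (TGACTCA, either strand) were in 8.25% of lower, 18.3% of higher and 9.41% of all REs. Across the alternative fits the SOX share of lower REs stayed between 71.9% and 91.0%, and the AP-1 share of higher REs between 14.7% and 35.9%.

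Other patterns differed in either direction. TFAP2 sites (GCCNNNGGC) were in 20.5% of lower, 31.1% of higher and 23.1% of all REs, and ETS sites (CCGGAAG) in 2.04%, 8.38% and 3.67%. The E-box of ZEB and SNAI repressors (CAGGTG) was in 35.5% of lower, 22.4% of higher and 33.6% of all REs. With the GC offset, higher REs held TFAP2 sites at 20.8% and ETS sites at 3.10%, no more than all REs did. The Coordinator-type E-box (CAGATG), a motif of TWIST1 with homeodomain partners, was in 49.3% of lower, 39.5% of higher and 42.1% of all REs, and the TEAD site (GGAATG) in 35.3%, 26.8% and 30.9%. Homeobox sites (TAATTA) were in 14.2%, 15.7% and 13.6%, but in 30.8% of the 390 REs that rose by more than 1. Each site is a match of letters and does not show binding.

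**Figure D4:**
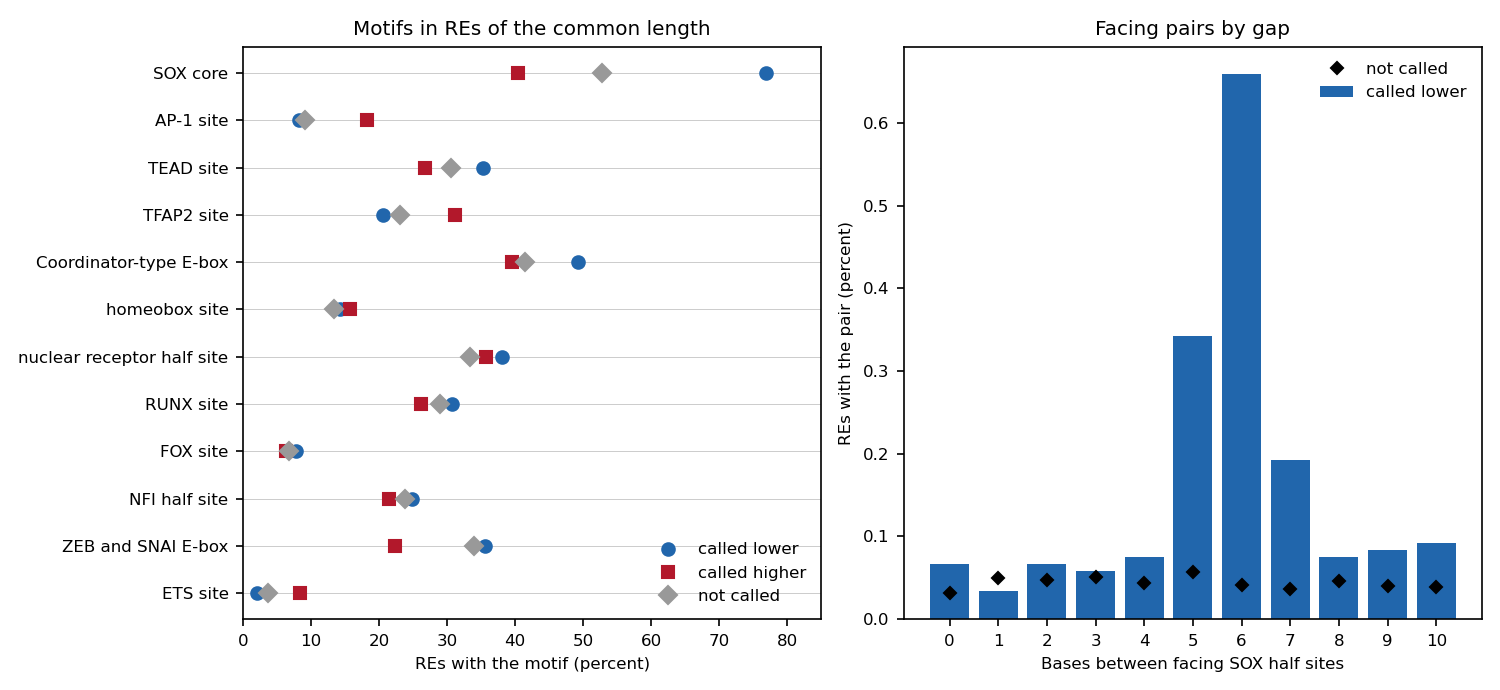
Left, percent of REs of 501 bp with each motif among REs called lower, called higher and not called at 24 h. Right, percent of REs that hold a facing pair of SOX sites, by the number of bases between them, for REs called lower (bars) and not called (points). SOX cores separate lower REs (76.8%) from the others, and facing pairs peak at a gap of 6 bp among lower REs, at 0.659%, against 0.0412% of REs not called.

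Among facing pairs, in which ACAAT is followed by ATTGT after a gap of 0 to 10 bp, REs with spacings of 5, 6 and 7 bp were lost most often. With a gap of 6 bp, 79 of 123 REs were lower (64.2%), none was higher, and the median log2 fold change was -1.36. With 5 bp, 41 of 102 were lower, and with 7 bp, 23 of 62. At every other gap from 0 to 10 bp, 4 to 11 of 46 to 62 REs were lower. For gaps of 5 to 7 bp together, 143 of 287 REs were lower (49.8%), with a median of -0.65 against 0.06 in WT cells. When the sites pointed away from each other over the same gaps, 35 of 213 were lower (16.4%), with a core but no such facing pair 13.5% of 67284, and without a core 4.94% of 56207. The gaps were grouped after their values were seen.

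Libraries taken after 3 h at 500 nM place the 24 h values in time, although both time points share their vehicle libraries. In the same fit 11252 REs were lower and 1381 higher at 3 h. The sets compared here were chosen by their 24 h calls, which favours larger values at 24 h than at 3 h. Medians of the REs lower at 24 h were -0.812 and -0.659 at 3 h (R4, R5) and -1.05 and -0.845 at 24 h. For the REs higher at 24 h they were 0.215 and 0.232 at 3 h and 0.630 and 0.499 at 24 h. A direct test of 24 h against 3 h called 2645 lower and 1510 higher REs (DESeq2, 1090 in all). At the DIAPH1 RE accessibility was 4.197 and 2.38 CPM at 3 h and fell further by 24 h (24 h against 3 h, log2 fold change -1.92, adjusted p = 0.00098). The SLIT3 RE that gained stood at 6.91 and 18.2 CPM at 3 h, near its vehicle levels of 6.70 and 16.9 CPM, and at 16.04 and 29.1 CPM after 24 h (24 h against 3 h, log2 fold change 0.94, adjusted p = 0.0021).

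The 48 h dose series shares no library with the 24 h comparison and gave the same directions. At 500 nM for 48 h, 21114 REs were lower (13.9% of all) and 15432 higher (10.2%). Of the 15044 REs lower at 24 h, 12698 were lower at 48 h (84.4% of the 24 h calls and 60.1% of the 48 h calls), and 3 were higher. Of the 7116 higher REs, 4036 were higher at 48 h (56.7% of the 24 h calls and 26.2% of the 48 h calls), and 15 were lower. The sign of the fitted 48 h change was the same for 98.9% of lower and 95.2% of higher REs. A differentiation of the dose series is also named R5, and without it the shares were 81.3% and 54.9%.

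REs that fell at 24 h also followed the SOX9 level at 48 h. At 0.5 nM, which by the labels leaves 77.9% of SOX9, their median change was -0.026 ± 0.083 (SD, n = 7). It was -0.130 ± 0.075 with 1.6 nM (51.7% of SOX9), -0.392 ± 0.112 with 5 nM (25.8%) and -0.590 ± 0.161 with 16 nM (8.14%). The full dose of 500 nM (0.95%) gave -0.793 ± 0.126. For the REs that rose, the medians in the same order were -0.040 ± 0.079, 0.016 ± 0.081, 0.112 ± 0.087, 0.197 ± 0.076 and 0.310 ± 0.092 (SD, n = 7 each). The median at 0.5 nM was within 1 SD of 0 in both sets. For lower REs the highest value at 0.5 nM, 0.114, came from replicate S9CC13_R14, whose 0 and 0.5 nM libraries were placed by title. The other changes of that replicate and the 48 h calls also use its 0 nM library. In WT cells at 24 h the medians of the same sets were -0.011 ± 0.065 and -0.019 ± 0.006 (SD, n = 2).

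**Figure D5:**
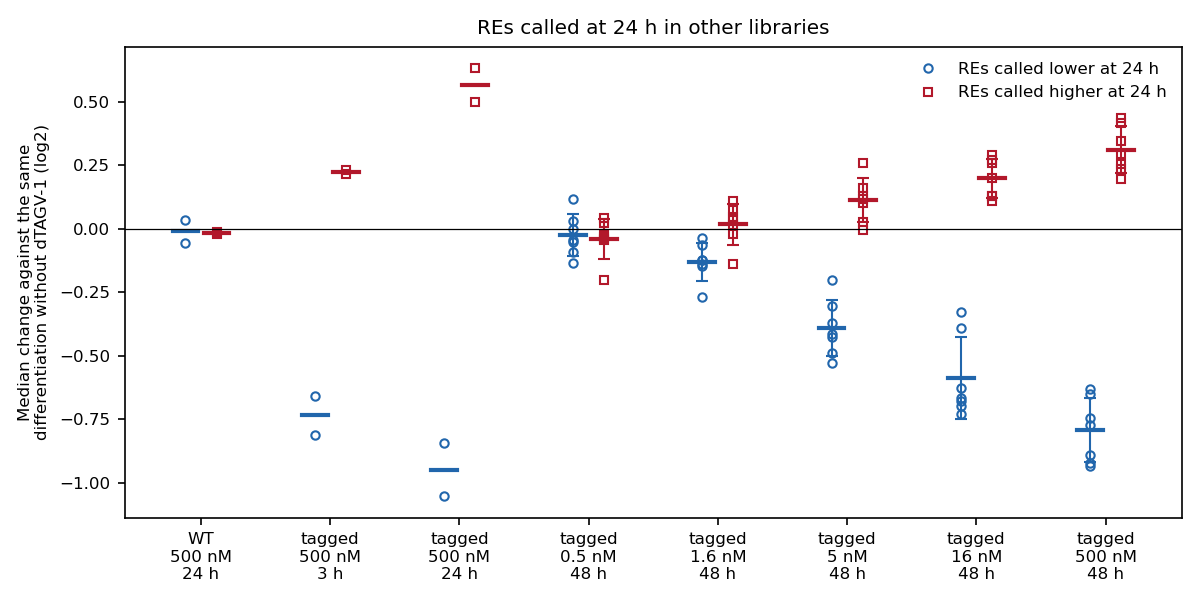
Median log2 change against the vehicle or 0 nM library of the same replicate (vertical) for REs called lower and higher at 24 h, in WT cells at 24 h, in SOX9-tagged cells at 3 h and 24 h, and at 5 concentrations after 48 h. Points are replicates (2 in the time course, 7 in the dose series) and bars their means. The losses deepen from 0.5 nM to 500 nM at 48 h, and the 24 h points, at -1.05 and -0.845 for lower REs, come from the libraries by which the REs were chosen.

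Few REs differed between 24 h and 48 h in a test of the difference of effects, which called 8 REs lower and 29 higher at 24 h (13709 at an unadjusted p under 0.05, and 80 by DESeq2). Of these 37, 29 had the larger change at 48 h, and 18 had fitted changes of opposite sign. An intergenic RE 269258 bp from PREX1, a Rac exchange factor, changed by -1.68 at 24 h and -2.66 at 48 h (difference 1.03 ± 0.14 (SE), adjusted p = 0.0074). It held 44.9 and 42.6 CPM with vehicle and 12.5 and 15.98 CPM after 24 h, against 42.2 ± 6.40 CPM (SD, n = 7) at 0 nM and 6.68 ± 1.097 CPM at 500 nM after 48 h, and the loss was deeper in the later series. PHF2, a histone demethylase gene 124726 bp from an RE with fitted changes of -0.44 at 24 h and -1.1 at 48 h, showed the same order (difference 0.71 ± 0.12 (SE), adjusted p = 0.042).

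Other REs turned between the series. Near EGFL7, a secreted vascular factor, the changes were 0.30 at 24 h and -0.39 at 48 h (difference 0.74 ± 0.12 (SE), adjusted p = 0.024). In HKDC1, a hexokinase-like gene, they were -0.45 at 24 h and 0.77 at 48 h (difference -1.17 ± 0.18 (SE), adjusted p = 0.016), with 3.46 and 9.23 CPM at 3 h, after vehicle levels of 6.82 and 17.4 CPM and before 24 h levels of 5.97 and 11.7 CPM. In NTM, a neuronal adhesion gene, they were -0.68 at 24 h and 0.19 at 48 h (difference -0.83 ± 0.15 (SE), adjusted p = 0.045), where the 48 h change did not pass the test (adjusted p = 0.13). Near ADCYAP1, the gene of the neuropeptide PACAP, the gain was larger at 48 h, with 0.36 at 24 h and 1.1 at 48 h (difference -0.68 ± 0.12 (SE), adjusted p = 0.038). The test of 24 h against 48 h called 0 REs when either R5 library of the time course was left out, and time cannot be told apart from other differences between the series.

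WT cells without the tag showed no called RE after 24 h at 500 nM. The edgeR fit and DESeq2 both called 0, with 4642 and 962 REs at an unadjusted p under 0.05, and edgeR called up to 487 when a WT library was left out. The direct test of SOX9-tagged against WT effects called 9515 REs with a lower effect in SOX9-tagged cells (6.28% of all) and 681 with a higher effect (0.450%). DESeq2 gave 7688 and 412. At DIAPH1 the difference between the effects was -5.39 on the log2 scale (adjusted p = 3.9e-12), at COL2A1 -1.55 (adjusted p = 3e-07) and at BMP7 -1.59 (adjusted p = 4.9e-08). For gains, it was 1.44 at the RE nearest MKI67 (adjusted p = 0.0044) and 0.64 at MSX1 (adjusted p = 0.02), while at ASIP (adjusted p = 0.094) and MKLN1 (adjusted p = 0.27) it did not pass.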

How the data were processed

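Accessibility was measured by ATAC-seq in bulk cells. The authors aligned reads to hg38 (Bowtie2 2.4.1), removed duplicate, mitochondrial and low-quality reads (SAMtools 1.10), called summits (MACS2 2.2.7.1) and merged them into REs. The deposited values are raw counts per RE; the counting tool is not given in the sources used here. Low counts were not filtered.

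edgeR 4.0.16 (R 4.3.3, TMM, quasi-likelihood F test, Benjamini-Hochberg over 151457 REs, threshold 0.05) was fitted to the 6 SOX9-tagged time-course libraries with differentiation as replicate block, and likewise to WT libraries, the genotype difference, the 48 h series (0 and 500 nM) and the difference of 24 h and 48 h effects. SE is the fold change over the root of F. The script was tested on simulated data. Python 3.11.15, pandas 2.3.3 and scipy 1.17.1 were used otherwise. DESeq2 1.42.0, other scalings, filters and left-out libraries were alternatives. Differentiation is a batch in the labels, and libraries of the same differentiation deviated together (r = 0.817 over 133454 REs). The time-course libraries held 43.02 to 62.59 M counts, and no pair was a duplicate.

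The members and gene lists were chosen with earlier results of these data known. Named REs were the 8 largest called changes each way with a mean of at least 1 CPM, the 5 largest at promoters, the called RE with the smallest p each way in each list, the SOX9 start, the 5 genes with the most calls each way, and the 3 REs each way that differed most between 24 h and 48 h. Genes are from GENCODE. Values of 3 genes that this rule names are not reported here, although list counts include them.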

Additional observations from a re-analysis of the deposited data

Results flagged for a closer look

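The effect of 24 h at 500 nM was tested between SOX9-tagged and WT cells, and 9515 REs had the lower effect in SOX9-tagged cells and 681 the higher effect (edgeR, adjusted p under 0.05).

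Between the 24 h comparison and the 48 h series, 8 REs had a lower effect at 24 h and 29 a higher effect. The effect at 24 h minus that at 48 h was -1.17 on the log2 scale at HKDC1, -0.83 at NTM and -0.68 near ADCYAP1. It was 1.03 near PREX1, 0.74 near EGFL7 and 0.71 near PHF2.

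In the dose series, the REs higher at 24 h had a median change of -0.20 at 0.5 nM in replicate S9CC47_R5, apart from the other 6 replicates of that concentration. It was 1 of 10 groups of replicates checked in this way, and chance sets a sample apart in about 1 of 20 groups.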

How the results depend on the processing

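Of all settings run, none turned the direction of a named RE with a call, and lower calls outnumbered higher calls at 24 h in each. The SOX9 start, which has no call, was not checked in this way. The promoter share of higher REs did cross that of all REs, as given above. The number of REs changed at 24 h was 22160 and within 1.5 times of it with DESeq2 size factors, total count, a minimum of 1 CPM, the 4 libraries alone, all 12 libraries and a GC offset. It was 13283 with DESeq2 and 969 without the replicate block. Fits without a whole differentiation, here and below, kept a single SOX9-tagged library of each treatment and added the WT libraries (9 libraries in all). They differ from the main fit in more than the left-out differentiation. Leaving out 1 library or differentiation gave 7353 to 26522, and the vehicle library of R4 moved it most among single libraries, to 10741. For lower REs the range was 7199 to 17019, with 969 without the replicate block. For higher REs it was 154 to 9503, with 2684 by DESeq2, 0 without the replicate block and 3813 with 12 libraries. With total counts, 58.5% of calls were lower, against 67.9%.

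The WT count ranged from 0 to 487 when a library was left out, the latter without the 24 h library of R5. The genotype difference gave 1587 REs without the replicate block, all with the lower effect and 0 with the higher, and 6125 to 10895 with a library left out (lower 6028 to 9702, higher 97 to 1193). DESeq2 gave 412 with the higher effect. The 48 h count was 46402 with a replicate block. The 24 h against 48 h count of 37 was 80 with DESeq2, 0 without the replicate block, 7 without R5 of the dose series and 0 to 7 with a library left out.

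Over REs of all lengths, SOX cores were in 79.2% of lower and 45.3% of higher REs, and AP-1 sites in 9.61% of lower REs. The share of 24 h calls found at 48 h was 82.2% (lower) and 54.3% (higher) with DESeq2, and 81.3% and 54.9% without R5, settings chosen after seeing the data. Of 73 named REs with a call, DESeq2 kept 64 and lost the gains of SOX6, COMP, NGFR, BOC, DPPA4, CDH5, PFKFB3 and EGFL7 and the loss of HKDC1. Without R4, 42 kept it and 29 of 37 increases lost it, and without R5, 57 kept it and 14 of 37 increases lost it. With REs counted only in gene bodies or within 10000 bp of a start, 6 list shares moved, to 7.14% lower for melanocyte genes, 0% lower and higher for neuroepithelium genes, 1.099% higher for mesenchymal transition genes and cadherins, and 0% higher for glial and pluripotency genes. The causes were not tested. The 24 h fit had 2 residual degrees of freedom.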

Other observations

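REs whose nearest coding start is that of SOX9 were looked at after the values were seen. They are 69 REs in chr17:71234269-72422949 (hg38). At 24 h, 18 were higher (26.1%, against 4.70% of all REs) and 2 lower, and 49 had a positive fitted change. Their median log2 change was 0.24 in SOX9-tagged cells and 0.03 in WT cells. The changes of the 18 called REs ranged from 0.33 to 0.92. At 48 h, 36 were higher and 1 lower, and 16 were higher at both times. The effect was higher in SOX9-tagged than in WT cells at 5 REs and lower at 0.

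The RE with the smallest p, in an intron 295311 bp from the SOX9 start (chr17:72416331-72416831), held 10.3 and 7.77 CPM with vehicle and 20.0 and 13.3 CPM after 24 h (log2 fold change 0.81 ± 0.11 (SE), edgeR adjusted p = 2.1e-05). Treatments did not overlap. The number of higher REs in this stretch was 0 without R4 and without the replicate block, 13 by DESeq2 and 24 with a GC offset.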
